A study of Mus musculus with 8 samples.

Results

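The Schlafen genes form a family of growth-regulating and interferon-inducible genes that lie next to each other on mouse chromosome 11. All probe sets that the array annotation assigns to a gene of this family were taken, 6 of 22626 once control probe sets were set aside. They cover 5 of the 13319 annotated genes: Slfn1, Slfn2, Slfn3, Slfn4 and Slfn8, with 1 probe set each, and a further probe set shared by Slfn3 and Slfn4. RNA came from lymph node cells of B10.BR mice, an inbred strain, sorted by flow cytometry and hybridised to Affymetrix arrays. The groups were naive mice (3 arrays), mice sampled 7 days after they were immunized (3 arrays) and mice at 28 days (2 arrays). What was sorted, what the mice were immunized with, and their sex and age are not stated, nor is it stated that each replicate is its own animal. The spread between arrays may therefore be technical. The family was chosen by earlier results of these same arrays, namely the low log2 ratio of Slfn8 at day 7 against naive. Differences between groups are therefore given as a description of these arrays, without p-values for the family. Where limma calls of its probe sets are counted, the share over all probe sets stands beside them, and they are not support.

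Schlafen proteins share an N-terminal core that binds and, in some members, cuts transfer RNA. Slfn1 and Slfn2 are short members that hold little beyond this core, Slfn3 and Slfn4 are of intermediate length, and Slfn8 is a long member with a helicase-like C-terminal part. In T cells the family is known for growth restraint: forced Slfn1 or Slfn8 expression slows T cell growth, and mice with defective Slfn2 lose the resting state of their T cells. Type I interferon induces several members through the interferon-stimulated response element (ISRE) in their promoters, and Slfn4 is best known as an interferon-induced gene of macrophages.

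The 250 bases before the start of the 3 family members whose values varied most are shown, 5′ to 3′, from the RefSeq promoter table of build GRCm38.p6. Capitals mark the ISRE core searched for, a pair of GAAA repeats in the same direction with 2 bases between them, on either strand.
Slfn8 promoter, chr11:83020811-83021060, minus strand: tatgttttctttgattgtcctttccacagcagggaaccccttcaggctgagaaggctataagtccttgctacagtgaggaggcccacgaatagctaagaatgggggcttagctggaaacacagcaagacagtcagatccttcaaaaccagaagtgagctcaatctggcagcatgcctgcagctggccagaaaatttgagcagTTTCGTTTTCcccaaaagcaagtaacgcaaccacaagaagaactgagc
Slfn1 promoter, chr11:83116570-83116819, plus strand: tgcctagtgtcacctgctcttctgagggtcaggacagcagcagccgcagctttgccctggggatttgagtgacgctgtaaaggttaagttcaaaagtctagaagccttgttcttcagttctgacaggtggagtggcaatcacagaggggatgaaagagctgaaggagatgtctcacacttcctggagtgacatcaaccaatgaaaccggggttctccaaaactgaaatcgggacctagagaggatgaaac
Slfn2 promoter, chr11:83064862-83065111, plus strand: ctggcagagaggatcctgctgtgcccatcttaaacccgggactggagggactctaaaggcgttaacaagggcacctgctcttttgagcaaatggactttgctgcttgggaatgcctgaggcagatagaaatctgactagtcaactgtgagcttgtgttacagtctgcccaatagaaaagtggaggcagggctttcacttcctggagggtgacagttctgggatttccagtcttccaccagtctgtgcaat
The Slfn8 promoter holds the core as TTTCGTTTTC, read on the strand of the gene, with its first base 48 bases before the start. A second annotated Slfn8 start lies further downstream, and the same letters lie 136 bases before it. The windows of Slfn1 and Slfn2 hold no match to these letters. Over windows of 300 bases (250 before and 50 after the start), the core occurred in 3 of 8 Schlafen genes with a promoter in the table, Slfn5, Slfn8 and Slfn9, and in 3.44% of all 32851 promoters. The first count is of genes, which have 9 promoters in all, and the share is of promoters. Slfn9 holds the same letters as Slfn8, 45 bases before its start. Their windows were the most alike between genes (54.1% identical over 209 bases at the second Slfn8 start). The windows were aligned without gaps, which understates likeness where a window holds extra bases. The bases on both sides of the match are nearly the same in both genes, so these are not read as separate matches. TTCNNNGAA, the core of the interferon gamma-activated sequence, occurred in 0 of the 8 and in 8.30% of all promoters. TATAAA occurred in 1 of the 8, Slfn4, 19 bases before its start, and in 13.6% of all promoters. No motif overlapped another in these windows. A match describes letters in a window and not a bound site.

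Values are log2 of the deposited ratio. The deposited ratio was read as a probe set's signal over its median on the 8 arrays, with a floor in place of medians that lie lower. A log2 ratio of 0 marks that median, so the values do not rank 1 gene against another. Slfn1, Slfn2, Slfn8 and the shared probe set each had a median ratio of 1. Slfn3 and Slfn4 had medians of 0.705 and 0.550, which places both below the floor. Only probe sets that reached a ratio of 1 on 2 or more arrays were tested. There were 13042 of these, among them 4 of the 6 Schlafen probe sets, and left out those of Slfn3 and Slfn4 alone.

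The arrays fell into sets by their hybridisation spike-ins, bacterial transcripts added to each sample. Their median log2 ratio was below 0 on naive replicate 1 and the day 7 arrays (-1.70 to -1.03) and above 0 on naive replicates 2 and 3 and the day 28 arrays (0.64 to 1.41). These are called the low and high spike-in arrays. Day 7 and day 28 lie wholly on opposite sides, so naive arrays alone link them. Of the T cell genes, 13 of 16 passed the filter, and 13 of 18 B cell genes. Of all probe sets 57.6% passed, which is a share of probe sets and not of genes. The filter compares a probe set with its own median or floor, so passing it does not say which cells were sorted. In such bulk samples, fewer cells of a type and less RNA per cell cannot be told apart.

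**Figure D1:**
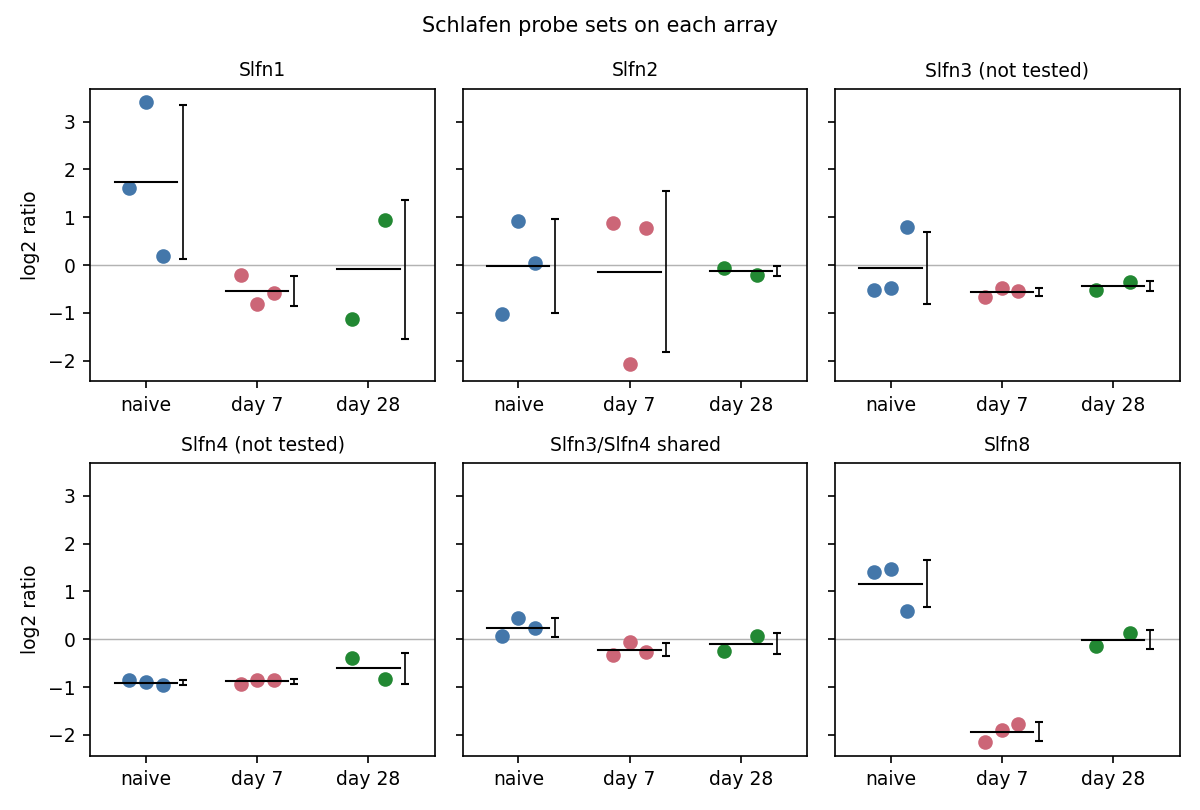
Each panel shows 1 Schlafen probe set, with 1 point per array, the log2 ratio on the y axis and the groups on the x axis; lines are group means and bars beside them 1 SD. The 3 day 7 arrays of Slfn8 lie between -2.16 and -1.77, below all other arrays, while Slfn2 spreads from -2.08 to 0.89 within day 7 alone.

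Slfn8, the long member that slows T cell proliferation when forced on, was high in naive cells, low at day 7 and between them at day 28. The naive arrays gave log2 ratios of 1.41, 1.48 and 0.60. The day 7 arrays gave -2.16, -1.89 and -1.77, and the day 28 arrays -0.14 and 0.13. No group overlapped another: day 7 lay 2.37 below the lowest naive array, and the higher day 28 array lay 0.47 below the lowest naive array. The group means were 1.16 ± 0.49 (SD, n = 3) in naive, -1.94 ± 0.20 (n = 3) at day 7 and -0.01 ± 0.19 (n = 2) at day 28. Day 7 was thus 8.58-fold below naive (log2 difference -3.10 ± 0.33, SE of the limma fit). Day 28 was 2.25-fold below naive (-1.17 ± 0.36) and 3.82-fold above day 7 (1.93 ± 0.36). The gap between day 7 and naive was also present among the low spike-in arrays alone, where day 7 minus naive replicate 1 was -3.35. Among the high spike-in arrays alone, day 28 minus naive replicates 2 and 3 was -1.04. When each array was left out in turn, the log2 difference of day 7 from naive ran from -3.38 to -2.94.

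Slfn1, a short member that restrains T cell growth, was highest in naive cells but varied widely among them. Naive log2 ratios were 1.62, 3.41 and 0.19, day 7 values -0.22, -0.83 and -0.58, and day 28 values -1.13 and 0.94. Every day 7 array lay below every naive array, with a gap of 0.41, whereas the day 28 arrays spanned the day 7 group and part of the naive one. The mean difference of day 7 from naive was -2.28 ± 0.84 (SE, 3 arrays each), and it was -1.44 without naive replicate 2, the highest array. Day 28 differed from naive by -1.83 ± 0.94 and from day 7 by 0.45 ± 0.94. The first of these was -0.79 without day 28 replicate 1 and -2.86 without day 28 replicate 2. The second turned to -0.58 without day 28 replicate 2.

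Slfn2, the member whose loss ends T cell quiescence in mice, differed more within groups than between them. Naive log2 ratios were -1.03, 0.92 and 0.05, day 7 values 0.89, -2.08 and 0.78, and day 28 values -0.05 and -0.21. Day 7 replicate 2 was the lowest array, although the other day 7 arrays were among the 3 highest. The day 7 difference from naive was -0.12 ± 0.84 and turned to 0.85 without day 7 replicate 2, and to 0.35 without naive replicate 2. Among the low spike-in arrays it was 0.89. Day 28 differed from naive by -0.11 ± 0.94, or 0.36 without naive replicate 2, and from day 7 by 0.01 ± 0.94, or -0.96 without day 7 replicate 2. No direction can be given for Slfn2. The median over the 13 T cell genes measured was -0.80 on day 7 replicate 2, its lowest value on any array, and 0.75 on day 7 replicate 1, its highest. Their part in the Slfn2 values was not tested.

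The probe set shared by Slfn3 and Slfn4, members of intermediate length, cannot say which of them it measured. It gave naive log2 ratios of 0.06, 0.45 and 0.23, day 7 values of -0.32, -0.06 and -0.27, and day 28 values of -0.24 and 0.06. Day 7 lay below naive with a gap of 0.12, and the mean difference was -0.46 ± 0.26. Day 28 differed from naive by -0.34 ± 0.29 and from day 7 by 0.13 ± 0.29, and the second turned to -0.03 without day 28 replicate 2. The probe set of Slfn3 alone ran from -0.67 to -0.36 on 7 arrays and was 0.80 on naive replicate 3. The probe set of Slfn4 alone ran from -0.96 to -0.84 on 7 arrays and was -0.38 on day 28 replicate 1. Slfn3 was thus below the floor on all arrays but 1 and Slfn4 on every array, and their group differences were not tested. The median over the 9 monocyte and macrophage genes measured, the cells in which Slfn4 is best known, was 1.09 on day 28 replicate 1, its highest value on any array. Its part in the Slfn4 value was not tested.

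**Figure D2:**
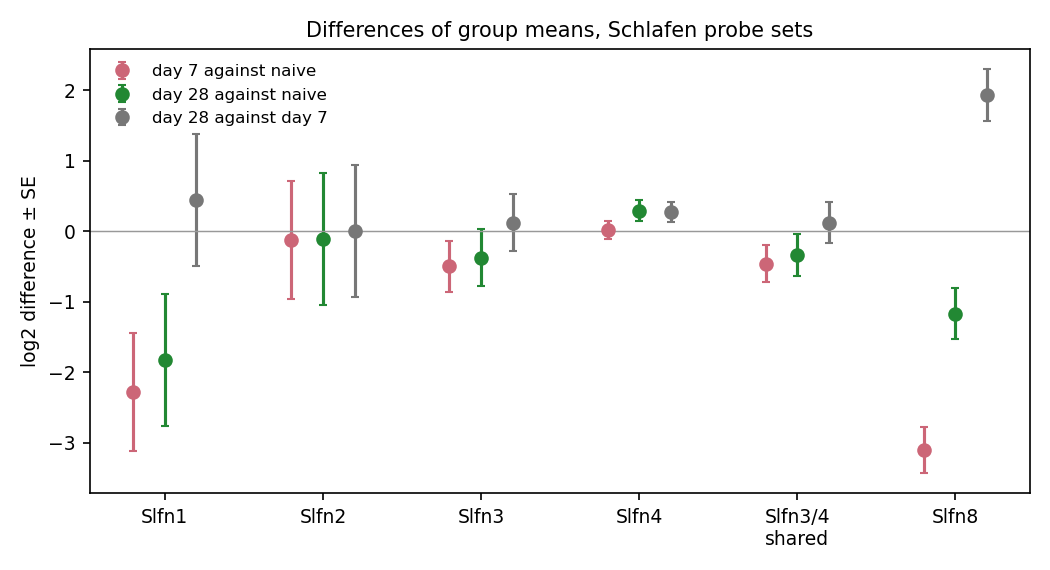
Points are differences of group means in log2 ratio for each Schlafen probe set (x axis), with bars of 1 SE of the limma fit. Slfn8 lies farthest from 0 for day 7 against naive (-3.10) and for day 28 against day 7 (1.93), and Slfn1 for day 28 against naive (-1.83, with Slfn8 at -1.17), while the bars of Slfn2 cross 0 in all 3 comparisons.

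Slfn8 and Slfn1 both had day 7 wholly below naive but differed at day 28, and Slfn2 had neither pattern. Of the 4 tested probe sets, 3 had day 7 values wholly below the naive values (Slfn1, Slfn8 and the shared probe set), against 8.61% of all 13042 tested probe sets. In limma's fit over all tested probe sets, 1 of the 4, Slfn8, passed the adjusted threshold (Benjamini-Hochberg adjusted p under 0.05) as lower at day 7, against 0.107% of all tested probe sets. These counts, like the rank of Slfn8 given below, describe the pattern for which the family was chosen and are no support for it. The call of Slfn8 was lost without naive replicate 2 and without day 7 replicate 3. It was also lost with a term for the spike-in sides and within the low spike-in arrays, where naive is 1 array and is assumed to vary as day 7 does. Of the 4, 1 (Slfn8) had day 28 values wholly below naive: its groups did not overlap, against 9.88% of all tested. In that comparison limma called 0 of the 4 at the adjusted threshold, against 0.322% of all tested. At an unadjusted p under 0.05 it was 1 of the 4, against 6.34% of all tested. Likewise 1 of the 4, Slfn8, had day 28 values wholly above day 7, against 15.2% of all tested. There limma called 0 of the 4 at the adjusted threshold, against 1.3% of all tested, and Slfn8 passed without naive replicate 1 or naive replicate 3. An unadjusted p under 0.05 was found for 1 of the 4, against 16.5% of all tested. Including Slfn8 itself, 12 of the 13042 tested probe sets had a day 7 difference as low as or lower than its own.

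**Figure D3:**
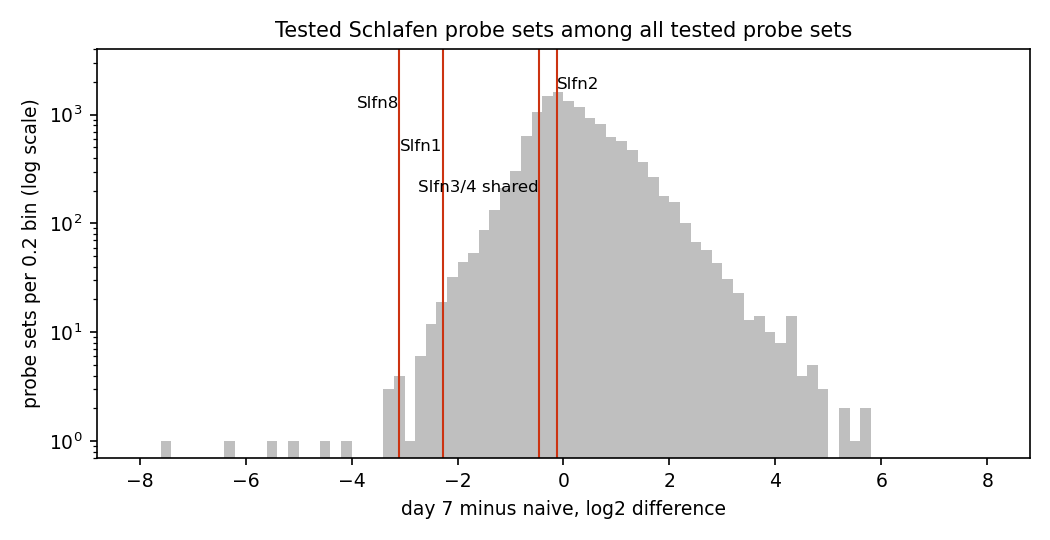
Grey bars count the 13042 tested probe sets by their log2 difference of day 7 from naive (log scale on the y axis), and red lines mark the 4 tested Schlafen probe sets. Slfn8 lies at -3.10 in the thin lower tail and Slfn1 at -2.28, while the shared probe set (-0.46) and Slfn2 (-0.12) lie near the bulk.

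Distances between members were compared with their distances from other genes. The mean absolute difference of log2 ratios over the 8 arrays was 1.07 between Slfn8 and Slfn1, 1.22 between Slfn8 and Slfn2, and 1.40 between Slfn1 and Slfn2. For comparison, the median of this measure between Slfn8 and all tested genes was 1.37, for Slfn1 1.26 and for Slfn2 0.94. The closest pair within the family was Slfn3 with the shared probe set, at 0.48, and Slfn3 with Slfn4 gave 0.51. This measure is small for any probe sets that vary little, and Slfn3 was mostly below the floor. It does not say which gene the shared probe set measured.

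The genes most like each member by this measure were of different kinds. Those most like Slfn8 were Arhgef18, a guanine nucleotide exchange factor (0.41), Dnm2, the membrane-cutting GTPase dynamin 2 (0.44), and Rcsd1, a regulator of actin capping (0.46). For Arhgef18 the naive log2 ratios were 1.17, 1.08 and 0.03, the day 7 values -1.92, -1.99 and -2.08, and the day 28 values 1.16 and -0.03. Those most like Slfn1 were Oas2, an interferon-induced antiviral enzyme (0.47), Irf7, a transcription factor of the interferon response (0.47), and Med25, a Mediator subunit (0.50). For Irf7 the naive values were 1.11, 3.54 and 0.11, the day 7 values -0.12, -0.73 and -0.88, and the day 28 values 0.24 and -0.25. It shared with Slfn1 the high value on naive replicate 2, as did Oas2 (2.69) and Med25 (2.52). Those most like Slfn2 were Timm13 (0.24) and Sdhb (0.28), both of mitochondria, and Cd2, an adhesion receptor of T cells (0.30). All of these had their lowest value on day 7 replicate 2, as Slfn2 did: -2.17 for Timm13, -2.035 for Sdhb and -2.12 for Cd2. Slfn3 was most like Retsat (0.17) and Slfn4 most like Gng11 (0.29), but these compare mostly flat values: Slfn3 was below the floor on all arrays but 1 and Slfn4 on every array.

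**Figure D4:**
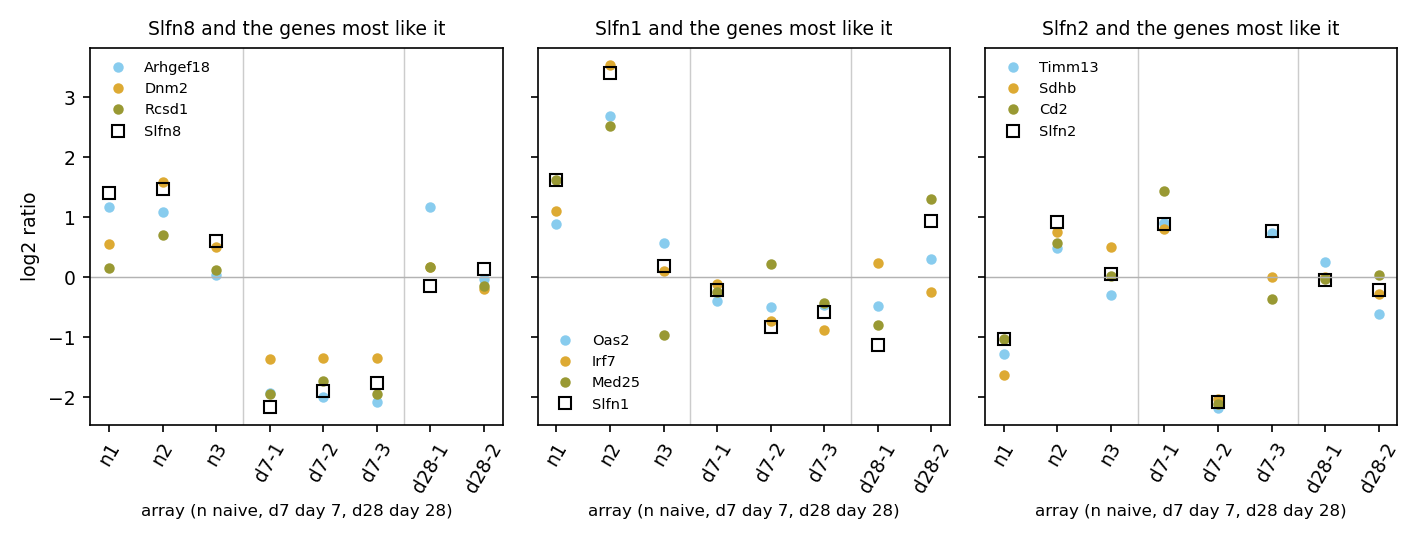
Open squares are Slfn8, Slfn1 and Slfn2, and filled points the 3 genes closest to each, with the 8 arrays on the x axis and the log2 ratio on the y axis. Slfn8 and the genes like it are low on all day 7 arrays. Slfn1 with Oas2, Irf7 and Med25 peaks on naive replicate 2, and Slfn2 with Timm13, Sdhb and Cd2 drops on day 7 replicate 2.

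Interferon-stimulated genes, the programme to which several Schlafen genes belong, did not pass singly. Of 53 genes listed, 41 were measured. In limma 0 passed the adjusted threshold at day 7 against naive, where 1.32% of all 7825 genes did. At an unadjusted p under 0.05, 1 of the list was higher and 5 lower. The share of all tested probe sets at that threshold is not given here for day 7 against naive. Unadjusted counts in that comparison, for this list and the later ones, are therefore not read as a result. The interferon-stimulated genes had a median log2 difference of -0.38, against 0.16 over all genes. By array, their naive medians were 0.86, 0.67 and -0.44, the day 7 medians -0.02, -0.34 and -0.0043, and the day 28 medians -0.06 and -0.26. Naive replicate 3, the lowest naive array of both Slfn1 and Slfn8, was also the lowest array of this list, below every day 7 array. The part of this list in the Slfn1 and Slfn8 values was not tested. For day 28 and naive 0 of 41 passed in limma, where 0.422% of all genes did (median -0.54 against -0.05 over all genes). At an unadjusted p under 0.05, 1 of the list was higher and 3 lower, against 6.34% of all tested probe sets. Between day 28 and day 7 0 of 41 passed in limma, where 1.51% of all genes did (median -0.08 against -0.21). At an unadjusted p under 0.05, 1 of the list was higher and 2 lower, against 16.5% of all tested probe sets. Ifitm1, an interferon-induced membrane protein, had the smallest adjusted p at day 7, with a log2 difference of 1.40 ± 0.26 (limma adjusted p = 0.0596), and did not pass.

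Interferon receptors and signalling genes were measured for 21 of 24 listed. In limma 0 of 21 passed at day 7 against naive, where 1.32% of all genes did. At an unadjusted p under 0.05, 1 was higher and 3 lower (median -0.38). At day 28 against naive 0 passed, where 0.422% of all genes did. At the unadjusted threshold 1 was higher and 0 lower (median 0.11), against 6.34% of all tested probe sets. At day 28 against day 7 0 passed, where 1.51% of all genes did. There 5 were higher and 3 lower at the unadjusted threshold (median 0.40), against 16.5% of all tested probe sets. At day 7 the receptor chain Ifnar2 had a log2 difference of 1.52 ± 0.36 from naive (limma adjusted p = 0.108) and its partner Ifnar1 of 0.48 ± 0.46 (adjusted p = 0.625). Irf7 had -2.16 ± 0.79 (adjusted p = 0.263) with groups that did not overlap. Irf9, the DNA-binding part of the type I interferon complex, had -0.38 ± 0.67 (adjusted p = 0.798), and the interferon-induced Ifit3 had -1.89 ± 1.02 (adjusted p = 0.410).

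Quiescence and naive state genes were measured for 24 of 28 listed. At day 7 against naive, 1 rose, 0 fell and 23 did not pass in limma (5 were lower at an unadjusted p under 0.05; median -0.22). The gene that rose was Cdkn2c, an inhibitor of the G1 kinases, by 2.81 ± 0.45 (limma adjusted p = 0.0396), where 1.2% of all genes rose. Its naive log2 ratios were 0.02, -0.09 and -1.24 and its day 7 values 1.98, 3.08 and 2.04. Its call was lost without any 1 array other than naive replicate 1 (adjusted p from 0.0764 to 0.169), and its adjusted p ran from 0.00468 to 0.298 over all alternatives. Foxo1, a transcription factor of the naive state, had -2.33 ± 0.52 (adjusted p = 0.0941) and Klf2, which keeps T cells resting, -1.35 ± 0.47 (adjusted p = 0.239), each with day 7 wholly below naive. Tob1 had -0.37 ± 0.36 (adjusted p = 0.637) and Tsc1 0.59 ± 0.55 (adjusted p = 0.616). Neither passed. At day 28 against naive limma called 0 of 24, against 0.422% of all genes, and at day 28 against day 7 0 of 24, against 1.51%. At an unadjusted p under 0.05, 2 were higher and 3 lower at day 28 against naive, against 6.34% of all tested probe sets. For day 28 against day 7, 5 were higher and 1 lower at that threshold, against 16.5%.

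G1 cell cycle genes, the step at which Slfn1 is reported to act, were measured for 18 of 23 listed. Cdkn2c, which this list also holds, was the 1 that rose at day 7 against naive, where 1.2% of all genes rose. In limma 0 fell and 17 did not pass (4 higher and 1 lower at an unadjusted p under 0.05). The median was 0.47 against 0.16 over all genes, and 12 of 18 had a positive difference, as most genes did. Between day 28 and naive 0 of 18 passed in limma, against 0.422% of all genes. At an unadjusted p under 0.05, 0 were higher and 1 lower, against 6.34% of all tested probe sets. For day 28 against day 7, 0 of 18 passed, against 1.51% of all genes. There 1 was higher and 4 lower at the unadjusted threshold, against 16.5% of all tested probe sets. The D-type cyclins, which start G1, did not pass at day 7. Ccnd3 had a log2 difference of -1.88 ± 0.57 (limma adjusted p = 0.183) and Ccnd2 of -1.35 ± 1.28 (adjusted p = 0.623). Ccnd2 had 7 tested probe sets, Foxo1 3 and Ifnar2 2, of which only the 1 picked for each gene is given here. Ccnd1 did not meet the filter. Genes of transfer RNA cleavage, processing and modification, the substrate of Schlafen proteins, were measured for 19 of 25 listed. In limma 0 passed in any comparison, against 1.32% of all genes at day 7, 0.422% at day 28 against naive and 1.51% at day 28 against day 7. At an unadjusted p under 0.05, 1 was higher and 1 lower at day 7. For day 28 against naive these counts were 0 and 0, against 6.34% of all tested probe sets. For day 28 against day 7 they were 2 and 0, against 16.5%. Ang, the ribonuclease angiogenin, which cuts transfer RNA, had -0.63 ± 0.32 at day 7 against naive (limma adjusted p = 0.386).

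Other genes beside the Schlafen cluster were set against it. Of the 5 entries on each side in the RefSeq gene table, 3 were tested: the DNA repair gene Rad51d, the ribosome assembly gene Nle1 and the adaptor subunit gene Ap2b1. At day 7 their log2 differences from naive were 0.19 ± 0.32, -0.51 ± 0.36 and 1.40 ± 0.58 (limma adjusted p = 0.785, 0.503 and 0.311), against -3.10 for Slfn8. None of the 3 passed in any comparison. Slfn5, Slfn9 and Slfn14, which lie within the cluster, have no probe set assigned in the annotation used and were not analysed here. Probe sequences were not used here, so whether the Slfn8 probes also take up RNA of close relatives such as Slfn9 was not tested.

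The day 28 arrays also carried B cell genes. The median of the 13 measured lay between -0.53 and -0.16 in naive cells and between -0.30 and -0.09 at day 7, but was 3.27 and 2.75 on the day 28 arrays. Of the 13, 8 rose at day 28 against naive in limma, against 0.383% of all genes called higher, and 0 fell. These counts are partly set by the filter, which a gene can pass through the 2 day 28 arrays alone. Blnk, which rose, did so: it ran from -1.49 to -0.94 on the naive and day 7 arrays and was 3.27 and 3.69 at day 28. At day 7, 0 of 13 passed in limma (1 higher and 0 lower at an unadjusted p under 0.05). In that comparison 1 of 8 NK cell genes measured rose, against 1.2% of all genes. Of the monocyte and macrophage genes, 8 of 9 had a positive difference (median 0.79, against 0.16 over all genes). Limma called 0 of them (2 higher at an unadjusted p under 0.05, for which no share over all is given here). The part of these lists in the Slfn8 values, and of the B cell genes at day 28, was not tested. The T cell list had 0 of 13 called at day 7 (0 higher and 1 lower at an unadjusted p under 0.05). At day 28 against naive 1 rose, the coreceptor chain Cd8b1 (3.70 ± 0.35), against 0.383% of all genes. Like Blnk, Cd8b1 passed the filter through the day 28 arrays alone: it ran from -0.44 to -0.06 on the others and was 4.07 and 3.10 at day 28. Its call is thus partly set by the filter.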

How the data were processed

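Expression was measured on 8 arrays, 3 naive, 3 at day 7 and 2 at day 28, grouped by their titles. Per the labels, 10 µg of total RNA was labelled for each array. GCRMA is named in the submitters' processing notes without a version, and the per probe set scaling is not given in the sources used here. The authors deposited linear ratios; for 47.9% of probe sets the median across arrays is 1 (within 0.0015) and no median is higher, from which the scaling was read. They were analysed as log2 ratios. The number of arrays limits the precision.

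A limma 3.58.1 fit in R 4.3.3, with 1 mean per group over the 8 arrays and two-sided moderated tests, covered the 13042 of 22626 probe sets that reached a ratio of 1 on 2 or more arrays. Adjustment was by Benjamini-Hochberg, with a threshold of 0.05. Slfn3 and Slfn4 differences come from the fit without a filter. In simulated arrays with the same spread at 13042 probe sets (day 7 against naive), 45% of changes of 2 and 78% of changes of 4 on the log2 scale were recovered.

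The members, lists and tests were chosen with earlier results of these data known. Each gene stands by 1 tested single-symbol probe set, picked by median and then by SD, which favours probe sets that changed (7825 genes, 2610 with several). Of 20380 probe sets with 1 symbol, 20351 matched RefSeq. The 12 lists cover interferon-stimulated genes, interferon signalling, quiescence, G1 control, transfer RNA, B cell, monocyte and macrophage, neutrophil, NK cell, dendritic cell, T cell, and stroma and endothelium. Named were all Schlafen probe sets and, from each list around the family, up to 4 genes past the threshold or the leading ones, and a fixed set, of which Tsc2 and Ccnd1 did not meet the filter and 1 other is not reported here. Not all of these are printed. The neighbours of the Schlafen cluster and the 3 genes most alike were named too. Alternatives changed the filter, normalization, variance model, samples, weights, block, spike-in term, threshold and representation of a gene, and left out each array.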

Additional observations from a re-analysis of the deposited data

How the results depend on the processing

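Of the Schlafen probe sets, limma called 1 at day 7 against naive, 0 at day 28 against naive and 0 at day 28 against day 7. At day 7 the count was 2 with array weights (Slfn1 was added) and 0 with the replicate block, the spike-in term and the low spike-in arrays alone. At day 28 against naive it was 0 under all alternatives. At day 28 against day 7 it was 1, Slfn8, with quantile normalization, median centring, only the groups compared and array weights. Leaving out 1 array gave 0 to 1, 0 to 0 and 0 to 1. The Slfn8 differences kept their direction under every alternative run, from -3.75 to -2.94, from -1.45 to -1.01 and from 1.80 to 2.73. The weights did not converge, and no comparison of day 28 with day 7 within a spike-in side was possible, since none holds both.

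Over all probe sets, 152, 42 and 170 were called in the 3 comparisons. The counts at day 7 were 94 with no filter, 76 with a median ratio of 1, 54 with trended and robust variance, 68 with only the groups compared, 2935 with array weights, 14 with the spike-in term and 31 at an adjusted p under 0.01. For day 28 and naive they were 26 with a median ratio of 1, 19 with trended variance, 0 with only the groups compared and 13 at 0.01. Between days 28 and 7 they were 62, 52, 591 and 28 in that order, 1562 with weights and 0 with the spike-in term. Without 1 array they ran from 17 to 1727, from 2 to 57 and from 25 to 810, and the highest count in each comparison came without naive replicate 1. Genes called over the 5 lists around the family numbered 1, 0 and 0. At day 7 this was 0 with trended variance, only the groups compared, the spike-in term or a threshold of 0.01, 33 with weights and 3 with the mean over probe sets. For day 28 and naive it was 1 with weights and 2 with the spike-in term. Between days 28 and 7 it was 1 with no filter, quantile normalization or the mean over probe sets, 2 with only the groups compared and 14 with weights. Without 1 array it ran from 0 to 14, from 0 to 2 and from 0 to 7.

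The replicate number as a block called 16, 9 and 15 probe sets, 0 Schlafen probe sets at day 7 and 0 list genes. Same-numbered arrays did not deviate together (correlations of deviations from -0.36 to 0.17), so the numbers were not taken as pairs. The causes of these changes were not tested.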

Other observations

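Lists of other cell types that a sorted lymph node sample could hold were measured in part. Over all genes, limma called 1.32% at day 7 against naive, 0.422% at day 28 against naive and 1.51% at day 28 against day 7. An unadjusted p under 0.05 was found for 6.34% of all tested probe sets at day 28 against naive and 16.5% at day 28 against day 7. For day 7 against naive that share is not given here. Of 12 neutrophil genes 3 were tested, and in limma 0 passed in any comparison, also at an unadjusted p under 0.05; their median log2 ratio reached 2.78 on day 7 replicate 3 and ran from -0.51 to 1.11 on the other arrays. Of 12 dendritic cell genes 5 were tested and 0 passed in any comparison in limma, also at an unadjusted p under 0.05. Of 12 NK cell genes 8 were tested, and 1, Nkg7 of cytotoxic granules, rose at day 7 against naive (4.05 ± 0.47, limma adjusted p = 0.0107) and 0 in the other comparisons (2 were higher at day 28 against naive and 1 was lower at day 28 against day 7 at an unadjusted p under 0.05). Of 18 monocyte and macrophage genes 9 were tested, and in limma 0 passed; at an unadjusted p under 0.05, 2 were higher at day 7 than in naive cells, 4 at day 28 than in naive cells and 3 at day 28 than at day 7. Between days 28 and 7, 9 of 13 B cell genes and 2 of 13 T cell genes rose, where 1.51% of all genes were called in either direction. A gene can pass the filter through the 2 day 28 arrays alone, so the filter favours genes high at day 28. None of 12 stroma and endothelium genes met the filter.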
